A study of Rattus norvegicus with 3 samples.

Results

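Potassium channel genes were taken here as every rat gene whose symbol starts with Kcn, found through the RefSeq accessions that name the array's probes. The rat reference lists 97 such symbols, and probes were matched to 90 of them. A gene was kept where at least 50% of the spots of 1 of its probes were flagged by the scanner software as well above background, on any of the 3 arrays. That kept 64 of the 90 genes, out of 11623 genes of any kind that met the same condition. The rule used detection and not the size or direction of any difference between muscles.

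The study compared fast with slow limb muscle, and slow muscle with and without its nerve. All 3 groups were skeletal muscle of male rats with a Wistar Honnover background, 12 weeks old per the labels, and each was measured on 1 one-colour (Cy3) Agilent array. The groups were the normal soleus, a slow postural calf muscle, the normal plantaris, its faster neighbour, and a soleus sampled 28 days after surgery that transected the sciatic nerve of the left leg (about 5 mm). The normal rats had no operation, so there was no sham-operated group. How many animals gave RNA to an array is not stated in the labels. With 1 array a group there is no replicate error, and no test or p-value is given for any difference. The ± beside a log2 fold is the scanner software's signal error carried through to the fold, and covers measurement only. Normal soleus and plantaris shared 1 slide and scan, and the denervated array lay on another, so denervation and slide cannot be told apart. In whole-muscle RNA, fewer cells of a type and less RNA per cell cannot be told apart either.

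Potassium channels let potassium leave or enter the cell and so set the resting potential and end the action potential. In a skeletal muscle fibre, inward rectifier and ATP-sensitive channels hold the surface membrane and T-tubules near rest, voltage-gated channels repolarise it after each action potential, and calcium-activated channels link the potential to calcium release. Tandem-pore channels carry background leak, and accessory subunits change the gating or traffic of the pores. Loss of the nerve is known to depolarise muscle fibres and to bring back channels of developing muscle, among them an apamin-sensitive small-conductance channel.

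The stretch of 250 bases before the annotated start is shown for 6 members described below, 3 that were higher and 3 of those lower on the denervated array. The 6 were picked by hand and do not stand for the other members. Sequences and positions are RefSeq's on the GRCr8 build, read 5′ to 3′ on the gene's own strand, and capitals mark the E-box words CAGCTG and CACCTG, searched on both strands (the first is its own reverse complement, and CACCTG on the other strand reads CAGGTG).
Kcnf1, chr6:45693707-45693956, minus strand: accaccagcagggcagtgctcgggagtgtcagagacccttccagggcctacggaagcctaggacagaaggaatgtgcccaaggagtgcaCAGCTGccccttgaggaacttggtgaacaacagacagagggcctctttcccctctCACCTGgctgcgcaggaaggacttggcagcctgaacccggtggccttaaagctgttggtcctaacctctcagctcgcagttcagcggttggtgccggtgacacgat
Kcnc4, chr2:197788434-197788683, minus strand: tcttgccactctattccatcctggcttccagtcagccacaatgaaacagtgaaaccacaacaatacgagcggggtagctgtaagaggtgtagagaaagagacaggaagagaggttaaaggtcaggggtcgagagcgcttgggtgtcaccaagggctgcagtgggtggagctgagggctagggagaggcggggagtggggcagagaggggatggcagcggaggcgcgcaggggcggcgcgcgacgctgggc
Kcnn3, chr2:177234090-177234339, plus strand: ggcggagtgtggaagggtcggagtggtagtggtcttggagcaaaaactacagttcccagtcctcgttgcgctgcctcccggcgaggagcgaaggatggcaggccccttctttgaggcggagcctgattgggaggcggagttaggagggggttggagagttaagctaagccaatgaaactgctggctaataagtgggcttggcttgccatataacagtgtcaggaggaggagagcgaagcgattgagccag
Kcnj13, chr9:95518987-95519236, minus strand: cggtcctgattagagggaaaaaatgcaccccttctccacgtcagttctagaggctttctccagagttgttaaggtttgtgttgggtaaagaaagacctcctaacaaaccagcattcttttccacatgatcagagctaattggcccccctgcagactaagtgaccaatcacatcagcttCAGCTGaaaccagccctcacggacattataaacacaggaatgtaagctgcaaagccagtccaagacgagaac
Kcnj2, chr10:96559975-96560224, plus strand: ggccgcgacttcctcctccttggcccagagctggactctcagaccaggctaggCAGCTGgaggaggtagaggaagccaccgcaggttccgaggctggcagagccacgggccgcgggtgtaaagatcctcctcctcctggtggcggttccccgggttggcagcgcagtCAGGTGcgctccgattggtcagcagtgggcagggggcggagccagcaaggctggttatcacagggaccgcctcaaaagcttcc
Kcne4, chr9:87695798-87696047, plus strand: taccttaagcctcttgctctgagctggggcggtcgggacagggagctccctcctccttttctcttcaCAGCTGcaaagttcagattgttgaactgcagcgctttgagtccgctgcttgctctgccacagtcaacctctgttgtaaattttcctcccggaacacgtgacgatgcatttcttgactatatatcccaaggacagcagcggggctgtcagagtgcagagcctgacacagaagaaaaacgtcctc

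E-boxes are the sequences that myogenic basic helix-loop-helix factors bind. Kcnf1 held CAGCTG 161 bases and CACCTG 106 bases before its start, and Kcnj2 held them 197 and 83 bases before. Kcnj13 and Kcne4 held CAGCTG alone, at 72 and 183 bases. Neither word was found in the windows of Kcnc4 and Kcnn3. Other members at least 2-fold lower after denervation were mixed. Kcnma1, Kcnh1, Kcnh4 and Kcnj9 held neither word, and Kcna5, Kcnd2, Kcnmb3 and Kcns1 held at least 1. Of the 64 members 41 had an entry in the promoter table. CAGCTG was in 10 of these 41 (24.4%), against 11.9% of 27457 windows of the same length over all genes, and CACCTG in 10 (24.4%) against 15.6%. The MEF2 consensus was in 1 member, Kcnj9 (2.44% against 3.07%), TATAAA in 2, Kcnj1 and Kcnj13 (4.88% against 13.1%), and the CArG box in 0 (against 1.50%). Member windows had a median GC content of 59.6%, and all windows 52%, so base composition differed between the sets compared. E-boxes were present before members that were higher, lower or within 2-fold on the denervated array, and a match is a description of letters, not of a bound site.

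Signals are given on a linear scale on which the 75th percentile of each array's spots is 1000, and they compare the same probe between arrays, never 1 gene with another. Most members were faint. The median over the members well above background was 82.9 for normal soleus (52 members), 55.6 for denervated soleus (48) and 68.5 for plantaris (56), and 4 members passed 1000 on each. On all 3 arrays 41 members were well above background, on 2 arrays 10, and on 1 array 13. The members above background on all 3 arrays were 64.1%, against 84.8% of all genes kept. Shares over all genes that follow were not matched for signal. Above background in both normal muscles but not after denervation were 8 members (12.5%, where 1.72% of all genes were): Kcna1, Kcna2, Kcna5, Kcnd2, Kcnh1, Kcnh4, Kcnip2 and Kcns1. Of these, Kcna2, Kcnip2 and Kcns1 passed with only 50% of their spots in both normal muscles. The reverse, above background only after denervation, held for 5 (7.81%, against 5.14% of all genes): Kcnb2, Kcnip1, Kcnip3, Kcnip4 and Kcnj1, with signals of at most 30.0. Plantaris alone showed 6 (Kcna10, Kcnc1, Kcne5, Kcng3, Kcnh5 and Kcnrg; 9.38%, against 2.52% of all genes), and normal soleus alone 2 (Kcnc2 and Kcnj16; 3.12%, against 2.06%). The faintest spot above background read 25.1 in normal soleus, 17.8 in denervated soleus and 22.5 in plantaris. Over all probes the denervated array had the largest share above background, 67.0% against 64.2% and 65.3%. Kcnf1 was above background in both soleus samples and not in plantaris, and Kcnk1 on the denervated and plantaris arrays only.

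**Figure D1:**
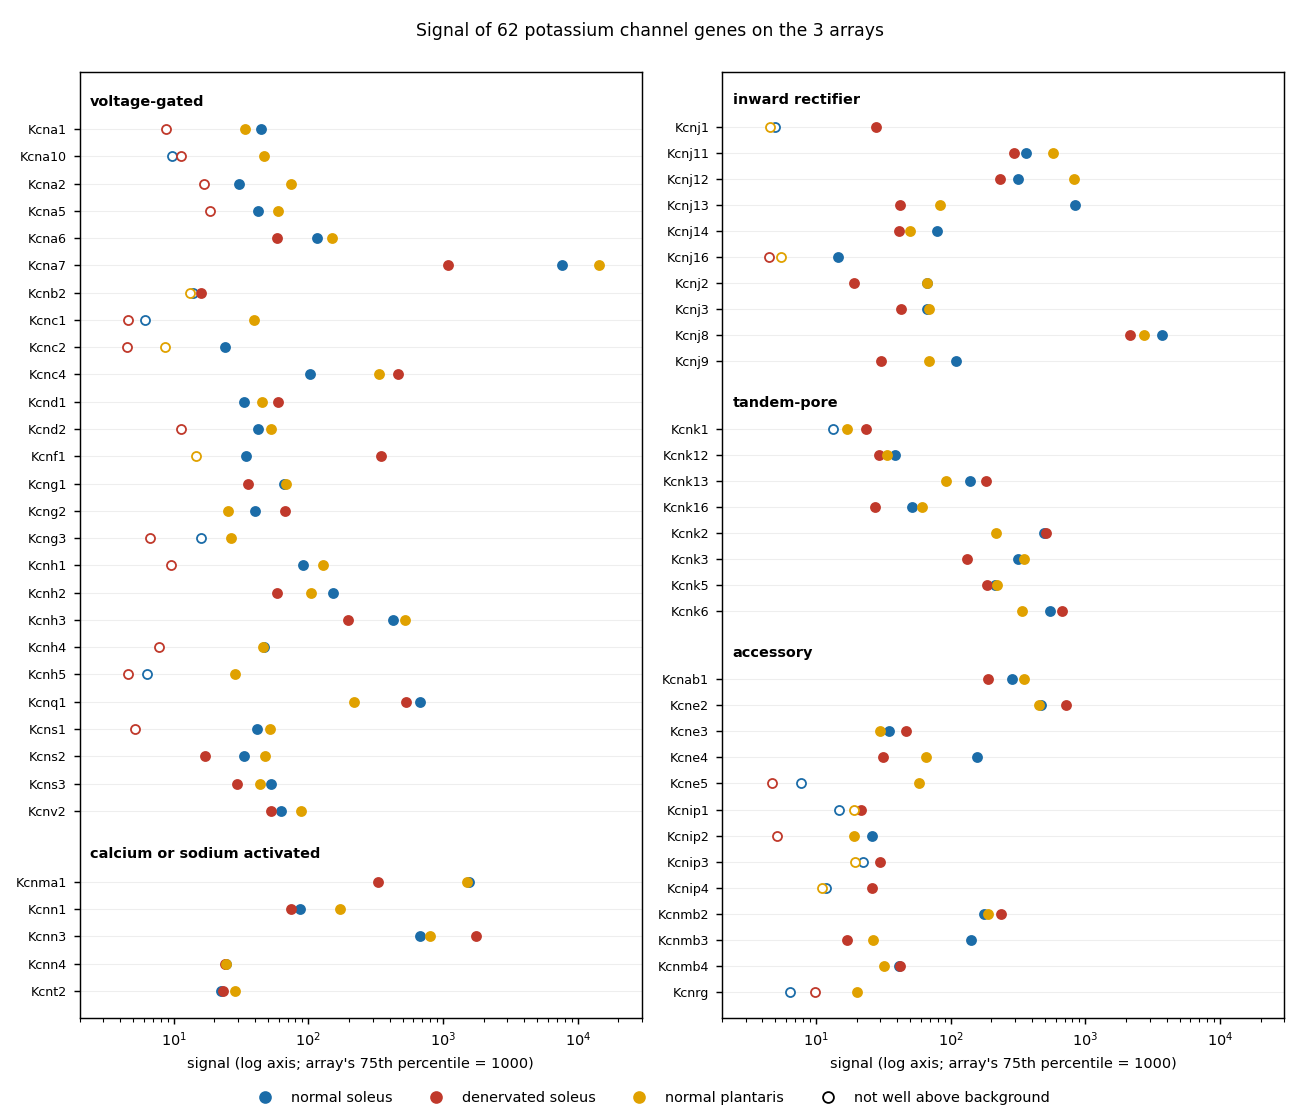
Signal of 62 of the 64 kept potassium channel genes on the normal soleus, denervated soleus and normal plantaris arrays, by role, on a log axis (array's 75th percentile = 1000). Open circles are not well above background; most genes lie under 1000, and the denervated point is often the leftmost, as for Kcna7 (1081 against 7653 and 14273).

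By role, 28 of 38 voltage-gated genes were kept, 10 of 15 inward rectifiers, 8 of 13 tandem-pore channels, 5 of 7 calcium- or sodium-activated channels and 13 of 17 accessory genes. The 26 genes that were not kept had highest signals between 5.35 and 21.1. They included Kcna4, Kcnd3, Kcnn2, Kcnmb1, Kcnab2 and Kcne1. The rule's edge was not sharp: the faintest genes kept were Kcnj16 (14.6), Kcnb2 (15.9), Kcnrg (20.1) and Kcnip1 (21.7), each with 50% of its spots above background on 1 array. The brightest left out were Kcne1 (21.1), Kcnab2 (19.5), Kcnt1 (19.4) and Kcnq3 (19.3). The 7 symbols with no matched probe, among them Kcnk7, Kcnq5 and Kcnu1, were not analysed here.

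The first comparison, plantaris over normal soleus, puts a fast muscle beside a slow one. Few potassium channel genes differed by 2-fold (1 log2 unit) or more. Kcnc4, an A-type voltage-gated subunit, and Kcnj12, a strong inward rectifier, were higher in plantaris. Kcnj13, an inward rectifier best known from epithelia, was lower by far more than 2-fold (-3.33 on the log2 scale), and Kcnq1, Kcne4 and Kcnk2 were lower by 2.28 to 3.08-fold. Of 59 members tested, 4 were at least 2-fold higher (6.78%), where 4.61% of all 11025 genes tested were, and 6 were at least 2-fold lower (10.2%), where 4.93% of all genes were. The median log2 fold of the members was 0.04 and that of all genes 0.02. Repeat spots of the same probe disagreed for Kcna2 and Kcne5 among the 4 and for Kcnmb3 among the 6. An alternative chosen after the data were seen left out genes whose repeat spots disagreed. Of the 48 members then tested 2 were higher (against 4.67% of all genes) and 5 lower (against 4.50%). Over the 49 members well above background on both arrays, 3 were higher (against 4.38% of 10056 genes) and 6 lower (against 4.31%).

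Denervated over normal soleus, the second comparison, shows a slow muscle after its nerve was cut. Many more members were lower than higher on the denervated array. Lower ones included Kcna7, a voltage-gated subunit known from muscle and heart, Kcnma1, the pore of the large-conductance calcium-activated channel, and Kcnj2, the classical inward rectifier of the resting membrane. Higher were 3 members: Kcnf1, a silent subunit, Kcnc4, and Kcnn3, the apamin-sensitive small-conductance channel. Of 58 members tested, 3 were at least 2-fold higher (5.17%), where 6.88% of all 11330 genes tested were, and 17 were at least 2-fold lower (29.3%), where 12.3% of all genes were. The median log2 fold of the members was -0.57, against 0.01 over all genes.

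That count of 17 includes faint genes. It holds 6 bounds, taken where the denervated signal was not well above background. Over the 42 members well above background on both arrays, 11 were lower (26.2%, against 11.7% of 10053 genes) and 3 higher (against 6.64%), with a median of -0.43. A limit chosen after seeing the data kept members with a signal over 100 on either array. Of these 25 members 9 were lower and 3 higher, where 12.5% of all such genes were lower and 7.23% higher. With normexp background correction 9 of 58 were lower, where 8.63% of all genes were. The authors' deposited values, which scale the arrays differently, gave 4 higher and 13 lower of 58. Under that scaling 11.5% of all genes were higher and 8.56% lower, since the median of all genes itself moved to 0.25 (and to -0.09 for plantaris over soleus and 0.34 for denervated over plantaris).

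**Figure D2:**
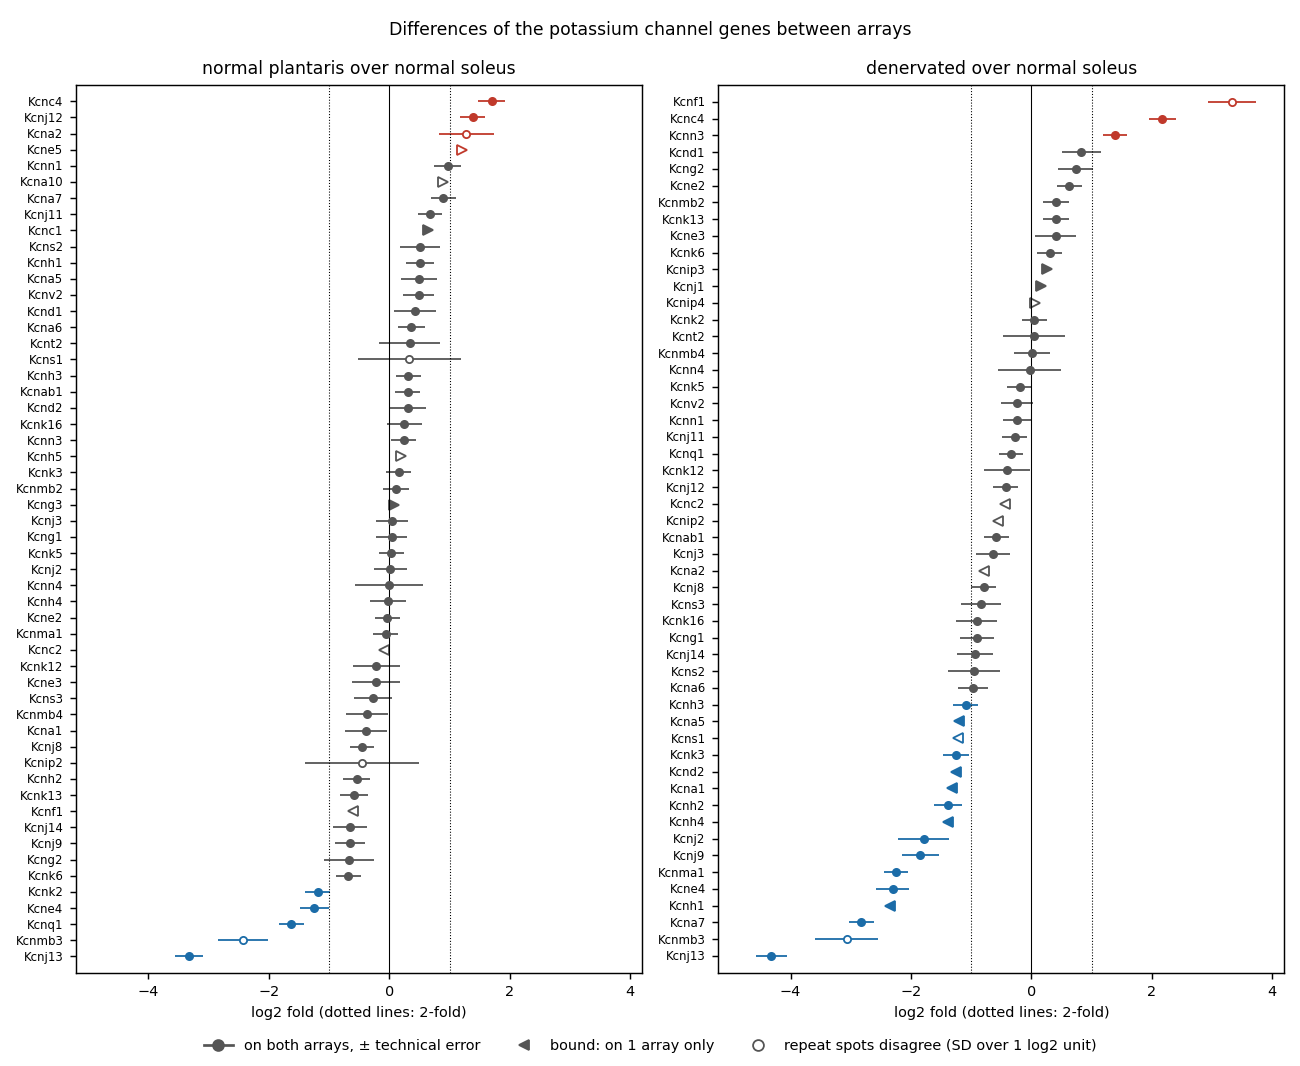
Log2 folds of the potassium channel genes for plantaris over normal soleus (left) and denervated over normal soleus (right), with the scanner software's technical error as bars and bounds as triangles; 1 array a group, and both panels share the normal soleus array. The genes drawn are those of the plot of signals. Blue points, at least 2-fold lower, number 5 on the left and 16 on the right; red points, at least 2-fold higher, number 4 and 3.

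**Figure D3:**
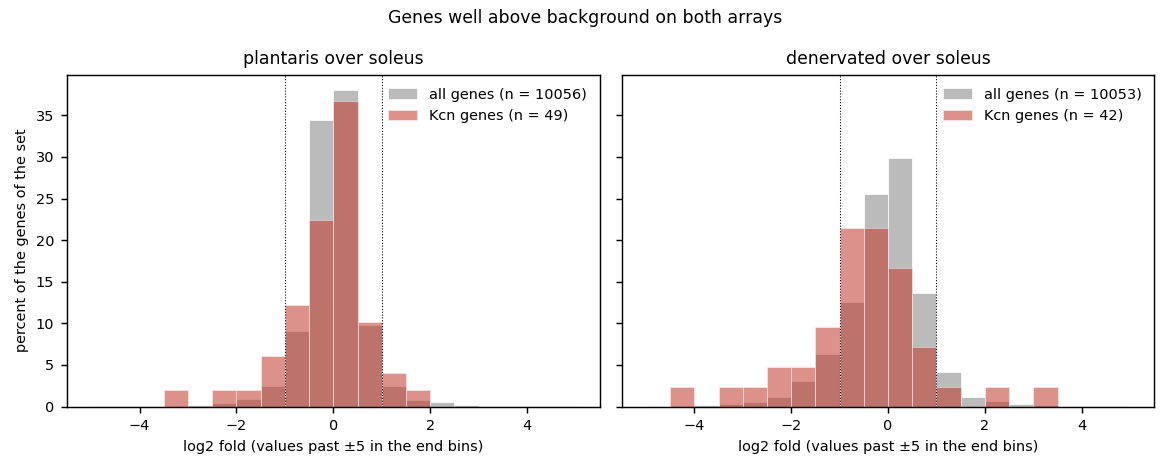
Percent of genes in each 0.5-wide bin of log2 fold, for all genes (grey) and potassium channel genes (red) well above background on both arrays, with dotted lines at 2-fold. The red bars lie around 0 on the left (median 0.04) and to the left of the grey ones on the right (median -0.43 against 0.00).

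Of 24 voltage-gated genes tested in denervated over normal soleus, 10 were at least 2-fold lower (41.7%, where 12.3% of all genes were) and 2 higher (8.33%, against 6.88%), with a median log2 fold of -0.95. That count includes all 6 bounds among the lower members. Over the 15 well above background on both arrays 4 were lower (26.7%), close to the 26.2% of all potassium channel genes. Between plantaris and soleus, 2 of 27 were higher (7.41%, against 4.61% of all genes) and 2 lower (7.41%, against 4.93%). The median was 0.30. Both comparisons use the same normal soleus array.

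Kcna7, a Shaker-family subunit, had a signal of 7653 in normal soleus, 14273 in plantaris and 1081 in denervated soleus. It was highest in the fast muscle and lowest in the muscle without its nerve. Its log2 fold was 0.90 ± 0.20 for plantaris over soleus and -2.82 ± 0.20 for denervated over soleus, a 7.08-fold lower signal. A second, fainter Kcna7 probe read 79.4, 137 and 16.2 in the same order, the last not well above background, and its bound of -2.16 had the same sign. Across the 12 alternatives the denervation fold lay between -2.84 and -2.56.

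Of the other Shaker genes, Kcna1, Kcna5 and Kcna6 read lower in denervated than in normal soleus. Kcna1, which also serves myelinated axons, had a signal of 44.3 in soleus, 33.9 in plantaris and 8.70, not well above background, in denervated soleus, at least 2.49-fold lower (-1.32 on the log2 scale, and -0.76 with normexp). Kcna5 read 42.5, 59.8 and, below that limit, 18.5 in the same order, a log2 bound of -1.20 after denervation, which was -0.96 on the authors' deposited values and -0.68 with normexp. Kcna6 stayed measurable at 115, 149 and 58.9, for a log2 fold of -0.97 ± 0.25. Kcna2, another axonal Shaker subunit, read 30.6 in soleus, 74.3 in plantaris and 16.7, not well above background, in denervated soleus. Its plantaris spots read 220 and 25.1, so its log2 fold of 1.28 ± 0.45 over soleus rests on 1 spot, and it was 0.85 with normexp. Kcna10 was above background in plantaris only (46.8, against 9.78 in soleus and 11.2 in denervated soleus), and its repeat spots disagreed too.

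Kcnc4, a Shaw-family subunit of fast inactivating current, was the member that was at least 2-fold higher than normal soleus on both other arrays. Its signal was 103 in soleus, 334 in plantaris and 464 in denervated soleus, with repeat spots close together on each array (101 and 105, 313 and 357, 483 and 445). The log2 fold was 1.70 ± 0.23 for plantaris and 2.17 ± 0.23 for denervated over soleus, or 3.25-fold and 4.50-fold. Over the 12 alternatives these lay between 1.18 and 1.76, and between 1.49 and 2.41. Kcnc1, a Shaw subunit of fast-firing cells, was above background only in plantaris (39.3, against 6.11 and 4.60 in normal and denervated soleus). Kcnc2 was above background only in normal soleus (24.0, from spots that disagreed).

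Kcnf1 codes for a silent subunit, which makes no channel alone and joins other voltage-gated subunits. Kcnf1 read 34.2 in normal soleus, 344 in denervated soleus and 14.5, not well above background, in plantaris. Both denervated spots (381 and 310) were above both soleus spots (15.8 and 74.1), which disagreed with each other. The log2 fold of denervated over soleus was 3.33 ± 0.41, and between 1.84 and 3.57 over the 11 alternatives that gave a value. Kcng2, a silent subunit of the same kind, read 40.3, 66.8 and 25.4 in normal soleus, denervated soleus and plantaris. Its fold over soleus was 0.73 ± 0.30 after denervation and -0.67 ± 0.41 in plantaris. Silent Kcns2 was lowest after denervation (17.2, against 33.3 in soleus and 47.4 in plantaris), with a log2 fold of -0.95 ± 0.44 over soleus. Kcns1 was at least 2.32-fold lower after denervation than in normal soleus, but its soleus spots read 276 and 6.20. Kcng1, Kcns3 and Kcnv2 were within 2-fold in both comparisons with soleus, with denervation folds of -0.91, -0.84 and -0.24.

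Ether-a-go-go genes were at least 2-fold lower after denervation in 4 of 4 members tested, where 12.3% of all genes were. The folds of Kcnh1 and Kcnh4 are bounds. Kcnh1 read 90.6 in soleus, 129 in plantaris and 9.53, not well above background, in denervated soleus, at least 5.09-fold lower. Kcnh2, the channel that repolarises the heart, read 152, 105 and 58.4 in that order, a log2 fold of -1.38 ± 0.24 after denervation. A second Kcnh2 probe gave -0.55 ± 0.33, and the fold was -0.91 with normexp and -0.97 with probes averaged. Kcnh3 read 421 in soleus, 524 in plantaris and 198 in denervated soleus (-1.09 ± 0.21), and it was -0.85 on the authors' deposited values and -0.95 with normexp. Kcnh4 read 46.7, 45.9 and, not well above background, 7.83, at least 2.63-fold lower after denervation (-1.39, and -0.81 with normexp). Kcnh5 was above background in plantaris only, at 28.7 from disagreeing spots, and was in neither soleus sample.

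Kcnq1, a delayed rectifier known from heart and epithelia, gave answers that depended on the probe. Its brighter probe read 669 in soleus, 528 in denervated soleus and 217 in plantaris, so that plantaris was low (-1.62 ± 0.21). Its other probe read 459, 80.4 and 485, so that denervated soleus was low (-2.51 ± 0.22) and plantaris level with soleus (0.08 ± 0.21). With probes averaged, the fold was -0.77 for plantaris and -1.43 for denervated over soleus. Of the A-type Shal subunits, Kcnd1 was higher after denervation without reaching 2-fold (33.4 in soleus, 44.8 in plantaris, 59.3 in denervated soleus, 0.83 ± 0.33). Kcnd2 read 42.5, 52.5 and, not well above background, 11.3 in the same order, at least 2.39-fold lower after denervation (-1.26, and -0.81 with normexp). Kcnb2 was above background in denervated soleus alone (15.9) and Kcng3 in plantaris alone (26.4).

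Inward rectifiers lay below normal soleus on the denervated array in every case measured on both arrays, 8 of 8. Over all genes so measured, 5010 of 10053 lay below. Of the 10 tested 3 were at least 2-fold lower (30%, where 12.3% of all genes were) and 0 higher (against 6.88%). Their median was -0.79. Plantaris was split, 4 above and 4 below soleus, as all genes were (5250 above and 4806 below). Kcnj13 read 842 in normal soleus, 83.8 in plantaris and 42.2 in denervated soleus. Repeat spots agreed on the order (868 and 816, 84.9 and 82.7, 32.9 and 54.1). The log2 fold was -3.33 ± 0.23 for plantaris and -4.32 ± 0.26 for denervated over soleus, and the latter lay between -4.33 and -3.19 over the 12 alternatives.

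Kcnj2, the strong inward rectifier whose mutations cause periodic paralysis in Andersen-Tawil syndrome, read 66.2 in soleus, 66.9 in plantaris and 19.1 in denervated soleus. The normal muscles were level (0.02 ± 0.27) and the denervated one was low (-1.79 ± 0.43). With normexp correction, which adds an offset of 50 and shrinks folds of faint probes, that fold was -0.88. Its relative Kcnj12 read 315 in soleus, 825 in plantaris and 234 in denervated soleus. Plantaris was thus high (1.39 ± 0.21, 2.62-fold) and the denervated muscle near normal soleus (-0.43 ± 0.21).

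Kcnj11, the pore of the ATP-sensitive channel of muscle fibres, read 360 in soleus, 575 in plantaris and 296 in denervated soleus. Its fold was 0.68 ± 0.21 and -0.28 ± 0.21 over soleus, within 2-fold both times. Kcnj8, the vascular ATP-sensitive pore, read 3733, 2726 and 2152 in that order (-0.45 ± 0.20 and -0.79 ± 0.20). Of 10 smooth muscle and pericyte markers, all were detected in both normal muscles and 9 in denervated soleus. Their summed signal, of which Smtn gave 11663, 6785 and 6185, was 23424 in soleus, 16407 in plantaris and 14580 in denervated soleus. After denervation 1 of the 10 was at least 2-fold lower (where 12.3% of all genes were) and 0 higher (against 6.88%). In plantaris 0 were lower (against 4.93%) and 1 higher (against 4.61%). Endothelial markers, 8 on the array, summed to 13966, 11485 and 7989. Their part in the Kcnj8 values was not tested. Of the G-protein-gated subunits, Kcnj9 read 109 in soleus, 69.4 in plantaris and 30.4 in denervated soleus (-1.84 ± 0.31), and Kcnj3 was at -0.64 ± 0.28 after denervation. Kcnj14 stood at -0.93 ± 0.30. Kcnj1, known from kidney, was above background in denervated soleus only (27.9, from 1 spot), and Kcnj16 in normal soleus only.

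Of the tandem-pore leak channels, 1 of 8 was at least 2-fold lower in plantaris than in soleus (12.5%, where 4.93% of all genes were). None was higher (against 4.61%). After denervation 1 of 8 was lower (12.5%, close to the 12.3% of all genes) and 0 higher (against 6.88%), though not the same gene. Kcnk2, a stretch- and lipid-sensitive leak channel, read 495 in soleus, 511 in denervated soleus and 217 in plantaris, so plantaris was low (-1.19 ± 0.21) and the denervated muscle level (0.05 ± 0.21). The plantaris fold was -0.95 with normexp. Averaged over its 3 probes it was -0.55, but the other Kcnk2 probes were not well above background on any array. Kcnk3, an acid-sensitive leak channel, read 314 in soleus, 351 in plantaris and 132 in denervated soleus, and kept a fold at or past 2-fold after denervation under all 12 alternatives (-1.25 ± 0.21, range -1.26 to -1.01). Kcnk5 was level on the 3 arrays at 214, 187 and 220 in soleus, denervated soleus and plantaris. Kcnk6 read 542, 670 and 338 in that order, lowest in plantaris (-0.68 ± 0.21). Kcnk13, a halothane-inhibited channel, read 138, 183 and 92.0, but its second probe turned both signs (0.32 and -0.21 in place of -0.59 and 0.40 for plantaris and denervated over soleus). Kcnk16 and Kcnk12 stood at -0.91 ± 0.34 and -0.41 ± 0.38 after denervation, and Kcnk1 gave no fold over soleus.

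The calcium- and sodium-activated channels held 1 member that was higher after denervation (20%, against 6.88% of all genes). Another 1 was lower (20%, against 12.3%). None of the 5 passed 2-fold between plantaris and soleus, where 4.61% of all genes were higher and 4.93% lower. Kcnn3 had a signal of 675 in soleus, 796 in plantaris and 1762 in denervated soleus. The denervated muscle stood above both normal ones, by 1.38 ± 0.20 over soleus (2.61-fold), with a range of 1.26 to 1.63 over 12 alternatives. Kcnn1, another small-conductance channel, read 87.2 in soleus, 171 in plantaris and 73.7 in denervated soleus, from 1 spot, so that plantaris was high (0.97 ± 0.22). Its second probe, with 2 spots, read 35.6, 48.0 and 20.1, for 0.43 ± 0.35 in plantaris and -0.82 ± 0.44 after denervation. Kcnn4 and Kcnt2 were faint and level on the 3 arrays, from 22.5 to 28.5.

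Kcnma1 had 3 probes that did not give the same picture. The brightest read 1557 in soleus, 1492 in plantaris and 327 in denervated soleus, level between the normal muscles (-0.06 ± 0.20) and low after denervation (-2.25 ± 0.21). The second read 622, 95.2 and 175, and the third 268, 94.6 and 232. On both of these, plantaris was the low sample (-2.71 ± 0.22 and -1.50 ± 0.22). After denervation the second stood at -1.83 ± 0.21 and the third at -0.21 ± 0.21. Averaged over probes, the denervation fold was -1.43. Which transcripts of the gene each probe reads was not examined.

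**Figure D4:**
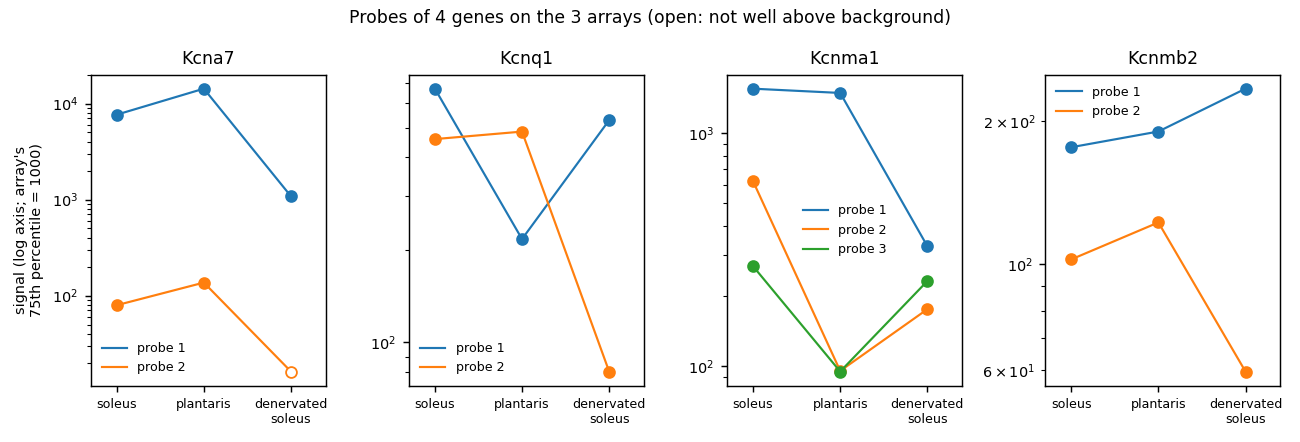
Signal of each probe of Kcna7, Kcnq1, Kcnma1 and Kcnmb2 in normal soleus, plantaris and denervated soleus, on log axes that differ between panels; lines join values of 1 probe. The 2 Kcna7 probes run in parallel, the Kcnq1 probes cross, and 2 of 3 Kcnma1 probes are lowest in plantaris (95.2 and 94.6).

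Among accessory genes 2 of 11 tested were at least 2-fold lower after denervation (18.2%, where 12.3% of all genes were). None was higher (against 6.88%), and the median was 0.03. Kcne4, which inhibits Kcnq1 channels, read 156 in soleus, 65.7 in plantaris and 31.4 in denervated soleus. It was thus lower than normal soleus on both arrays, by -1.24 ± 0.24 and -2.31 ± 0.28. With normexp the plantaris fold was -0.62. Kcne2, a partner of Kcnh2 and Kcnq1, read 466, 455 and 721 in that order, higher after denervation without reaching 2-fold (0.63 ± 0.21). Kcne3, the muscle partner of Kcnc4, stayed within its measurement error of soleus in plantaris and close to it after denervation (35.0, 30.0 and 46.2, for folds of -0.22 ± 0.40 and 0.40 ± 0.34). Kcne5 was above background in plantaris alone, on 1 of its spots (177 and 18.9), at least 2.31-fold over soleus (1.21, and 0.79 with normexp or 0.25 with probes averaged). The other Kcne5 probe was not well above background on any array.

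Kcnab1, a cytoplasmic subunit of Shaker channels, read 284 in soleus, 351 in plantaris and 189 in denervated soleus, -0.59 ± 0.21 after denervation. Of the Kcnma1 partners, Kcnmb3 read 142 in soleus, 26.3 in plantaris and 16.9 in denervated soleus. Its soleus spots were 586 and 34.2, so its folds of -2.43 and -3.07 over soleus rest on 1 bright spot. Kcnmb4 was level after denervation (0.01 ± 0.30, 41.5 against 41.7) and read 32.1 in plantaris. The Kcnmb2 probe used here read 176, 190 and 234 in soleus, plantaris and denervated soleus (0.41 ± 0.21 after denervation), and its other probe was lower after denervation instead (-0.78 ± 0.24). Of the partners of Kcnd channels, Kcnip3 (30.0) and Kcnip4 (26.0) were above background only in denervated soleus, and Kcnip2 only in the normal muscles (26.2 in soleus, 19.1 in plantaris). Bounds over soleus for these 3 were 0.26, 0.05 and -0.56, short of 2-fold. Kcnip1 and Kcnrg gave no fold over soleus.

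**Figure D5:**
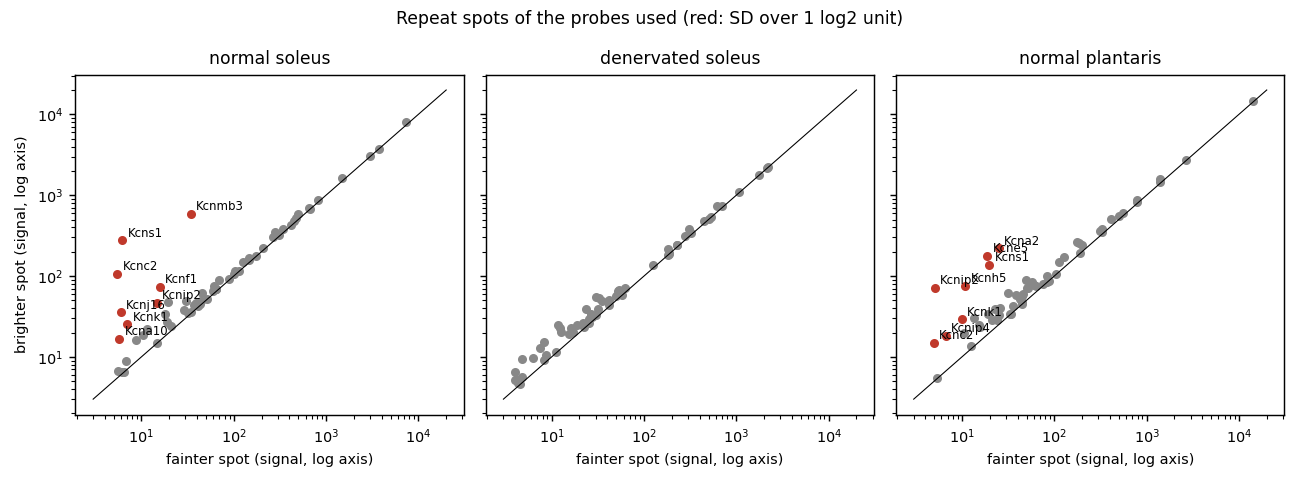
Fainter against brighter repeat spot of the probe used for each potassium channel gene with 2 spots, 1 panel per array, log axes; the diagonal marks equal spots and red points differ with an SD over 1 log2 unit. Disagreeing pairs lie among faint spots on the soleus and plantaris arrays, such as Kcns1 (276 and 6.20 in soleus), and no pair passed the limit on the denervated array.

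Repeat spots were the only replicate measurement. Of the 64 members 62 had 2 spots of the probe used, and 12 disagreed by an SD over 1 log2 unit on some array: Kcna2, Kcna10, Kcnc2, Kcne5, Kcnf1, Kcnh5, Kcnip2, Kcnip4, Kcnj16, Kcnk1, Kcnmb3 and Kcns1. None of these spots bore an outlier flag. For the bright members the spots lay close together, as for Kcna7 in soleus (7308 and 8014) and plantaris (14107 and 14441).

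The third comparison sets denervated soleus against plantaris and shares its arrays with the other comparisons. It asks how a denervated slow muscle stands against a normal fast one, and adds the slide to the difference between muscles. Kcna7 was 13.2-fold lower on the denervated array (-3.72 ± 0.20), and Kcnj12 (-1.82 ± 0.21), Kcnj2 (-1.81 ± 0.42) and Kcnk3 (-1.41 ± 0.21) were lower too. Kcnf1 was at least 15.3-fold higher, Kcng2 higher by 1.40 ± 0.37 (0.23 with normexp) and Kcnn3 by 1.15 ± 0.20. Of 62 members tested, 5 were at least 2-fold higher (8.06%), where 10.2% of all 11384 genes were, and 22 were at least 2-fold lower (35.5%), where 15.5% of all genes were. The median was -0.69, against 0.00 over all genes. Over the 42 members well above background on both arrays, 4 were higher (against 9.84% of 10096 genes) and 13 lower (against 15.2%). On the authors' deposited values the split was 9 higher and 16 lower, where 19.4% of all genes were higher and 9.30% lower. Kcnk2 (1.24 ± 0.21) and Kcnq1 (1.28 ± 0.21) were higher on their brighter probes, while the other Kcnq1 probe gave -2.59 ± 0.22. With normexp Kcnk2 stood at 0.92 and Kcnq1 at 0.86. Of the 22 that were lower 9 were bounds, the largest of them Kcnh1 (at least 7.23-fold) and Kcna2 (at least 4.17-fold).

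Proteins that work with potassium channels or carry potassium were read from a list of 37 genes, of which 34 were on the array. In denervated over normal soleus 28 were tested, and 3 were at least 2-fold higher (10.7%, where 6.88% of all genes were) and 9 lower (32.1%, where 12.3% were), with a median of -0.48. In plantaris over soleus 29 were tested, with 3 higher (10.3%, against 4.61%) and 6 lower (20.7%, against 4.93%), and a median of 0.01. Denervated over plantaris gave 4 higher (14.3%, against 10.2%) and 10 lower (35.7%, against 15.5%) of 28. The sulfonylurea receptor Abcc8 read 868 in soleus, 1922 in plantaris and 314 in denervated soleus. It was thus highest in plantaris (1.15 ± 0.20) and lowest after denervation (-1.47 ± 0.21), while its pore partner Kcnj11 was within 2-fold of soleus on both arrays. Abcc9, the other sulfonylurea receptor, read 2954, 2836 and 2108 (-0.06 ± 0.20 and -0.49 ± 0.20).

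The leucine-rich auxiliary subunits of the Kcnma1 channel were at least 2-fold lower after denervation in each of the 3 detected. Over all genes 12.3% were. Lrrc26 read 524 in soleus, 470 in plantaris and 119 in denervated soleus (-2.14 ± 0.21). Lrrc38 stood at -1.43 ± 0.21, and Lrrc52, detected in normal soleus alone at 171, was lower by a log2 bound of -3.27. The pacemaker channel genes Hcn2, Hcn3 and Hcn4 stood at -1.36 ± 0.30, -1.01 ± 0.42 and -1.89 ± 0.22 after denervation, and within 2-fold between plantaris and soleus.

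Of the sodium-potassium pump, the beta subunit Atp1b1 stood at -1.06 ± 0.20 in plantaris and -0.90 ± 0.20 in denervated soleus. Atp1b2, the pump's beta subunit of fast fibres, read 1270 in soleus, 1781 in denervated soleus and 23997 in plantaris, for a plantaris fold of 4.24 ± 0.20. Atp1b4, a beta-type protein that does not serve the pump in mammals, was lower after denervation (122 against 970, -2.99 ± 0.21). Fxyd6, a pump modulator, was higher after denervation on both of its probes (2.43 ± 0.20 and 1.92). In plantaris it was lower (-2.08 ± 0.20), with its second probe at -0.93, short of 2-fold. Of the cation-chloride cotransporters, Slc12a2, which loads the cell with potassium and chloride, read 646 in soleus, 1322 in plantaris and 5046 in denervated soleus (1.03 ± 0.20 and 2.97 ± 0.20). A second Slc12a2 probe gave 0.52 in plantaris, short of 2-fold, and 2.64 after denervation. Slc12a3, faint, was higher by a bound of 1.03 after denervation. Slc12a4 and Slc12a7 were lower in plantaris (-1.08 ± 0.20 and -1.20 ± 0.21), as were Lrrc52 by a bound of -2.93 and Fxyd7 (825 in soleus, 412 in plantaris). The second Slc12a7 probe stood at -0.91 there, short of 2-fold.

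Other cell types and the fibre types themselves differed between the arrays. Slow fibre markers were at least 2-fold lower in plantaris in 7 of 7 genes (against 4.93% of all genes). Fast fibre markers were higher in 7 of 8 (against 4.61%), matching the labels. After denervation 6.88% of all genes were at least 2-fold higher and 12.3% lower. By the same measure 6 of 6 markers of denervated muscle were higher, 6 of 7 slow fibre markers lower and 4 of 8 fast fibre markers higher. Adipocyte markers were higher in 4 of 5 genes (summed signal 67743 against 15445), and endothelial markers lower in 3 of 8. Fibroblast and tendon markers were at least 2-fold higher in 2 of 9, though all 9 lay above soleus (270801 against 119179). Of 11 Schwann cell and nerve markers tested 5 were lower and 3 higher. Nefl of that list was above background on the denervated array only (11.6, from spots that disagreed). Kcna1 and Kcna2 were among the 8 members above background in both normal muscles but not after denervation. What part these shifts have in the potassium channel values was not tested.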

How the data were processed

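Total RNA of 3 muscle samples was labelled with Cy3 and hybridised to 3 Agilent arrays, 1 per group. Spots were read with Agilent Feature Extraction 10.10.1.1, per the submitters' processing notes. Per the file headers that software subtracted background and spatial trends from each spot's linear intensity and did not scale between arrays; other columns deposited are flags of 0 or 1 for spots well above background, saturated or outlying. The authors' deposited value table, also an intensity, equalled the processed signal times 1.60 (normal soleus), 1.41 (denervated) and 1.80 (plantaris), so its direction is that of the signal and what set its scale is unknown; the column medians were 204, 243 and 181.

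The log2 processed signal was centred on each array's 75th percentile over 58717 non-control spots, of which 0 were saturated. Repeat spots were averaged without those flagged as outliers (467 to 569 per array), unless all spots of a probe were flagged. Probes with at least 50% of spots above background were taken as above it (64.2% to 67.0% of 30367 probes). RefSeq accessions named 18005 probes, standing for 15168 genes. The array was designed on an older rat assembly than the names, so no probe position is given. The brightest probe above background stood for a gene. Genes above background on either array entered a comparison; where on 1 only, its fold is a bound against the higher of the dim array's own signal and its faintest spot well above background (25.1 for normal soleus, 17.8 for denervated, 22.5 for plantaris), and a bound of the opposite sign was left out. Counts take 2-fold (1 log2 unit), a rule of size and not a test. The median technical error of a member's fold was 0.249, 0.256 and 0.247 log2 units in the 3 comparisons; the number of arrays limits the precision.

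Members described in full were, per comparison and direction, the 8 largest folds on both arrays and the 4 largest bounds, the 8 with the highest signal per array, and a set of muscle channels whatever their value; Kcna6, Kcng1, Kcnj3, Kcnj14, Kcnk16, Kcns1, Kcns3 and others outside it are named to account for every member. Members, lists and rules were chosen with earlier results of these data known. Scaling, background, filters, probes and spots were varied in 10 ways, and in 2 more after the data were seen. Normexp (limma 3.58.1, R 4.3.3) used the median spot and background signals. Tables were made with Python 3.11.15, pandas 2.3.3 and numpy 2.4.6, figures with matplotlib 3.10.9, and the counting of calls was tested on simulated data. Values of some genes counted among the members and lists are not reported here.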

Additional observations from a re-analysis of the deposited data

How the results depend on the processing

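No paired analysis was possible because each group had 1 array. Of the described members past 2-fold, 5 of 10 for plantaris over soleus, 11 of 19 for denervated over soleus and 9 of 24 for denervated over plantaris were so in every alternative that gave them a value. The 12 alternatives were quantile normalization, centring on the median or on the 75th percentile of the probes well above background on all arrays, the authors' values, normexp with an offset of 50, 2 stricter filters on dim probes, no such filter, the mean over probes, the median over spots, and, chosen after seeing the data, only genes whose repeat spots agreed and only signals over 100. The partner list was also run after the data were seen.

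Normexp gave 2 of 59 potassium channel genes higher in plantaris than soleus, where 2.77% of all genes were. After denervation 9 of 58 were then lower (against 8.63%). For denervated over plantaris 2 of 62 were higher (against 4.43%) and 10 lower (against 11.2%). Requiring both arrays above background left 11 of 42 lower after denervation (against 11.7% of all genes). Against plantaris it left 13 of 42 lower (against 15.2%). Signals over 100 left 9 of 25 (against 12.5%) and 8 of 23 (against 16.1%). For plantaris over soleus 2 of 47 were higher with every spot above background (against 4.83% of all genes). With agreeing spots 2 of 48 were higher (against 4.67%), and 2 of 26 were with signals over 100 (against 5.04%). Averaging probes left 3 of 62 higher for denervated over plantaris (against 9.77% of all genes) and turned Kcnq1 there to -0.65. On the authors' values 9 of 62 were higher for denervated over plantaris (against 19.4% of all genes). The members' medians on those values were -0.33 there and -0.25 for denervated over soleus. With signals over 100 the denervated over plantaris median was -0.34. The members' plantaris over soleus median, near 0, became -0.0087 on the probes above background on all arrays and -0.067 on the authors' values.

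For the partners, the authors' values gave 8 higher for denervated over plantaris, where 19.4% of all genes were, and a median of -0.16. Medians on those values were -0.24 for denervated over soleus and -0.10 for plantaris over soleus. The last was -0.047 on the probes above background on all arrays, -0.0021 with every spot above background and -0.11 with signals over 100, which also gave 0.0498 for denervated over plantaris. Requiring both arrays or every spot above background, agreeing spots or signals over 100 meant that fewer genes were tested; for the other settings the cause was not tested. Signal over background limits what can be said of faint members, which lie far below their array's 75th percentile.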
